A study of Mus musculus with 25 samples.

Results

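Angiogenins, an intelectin, a mucosal pentraxin and a resistin-like protein are secreted by the intestinal lining, and 6 of their genes, Ang, Ang2, Ang4, Itln1, Mptx1 and Retnlb, are described here on 25 arrays of mouse colon. The genes were taken by name and had been selected on the same arrays by their measured levels after dextran sulfate sodium (DSS), which had been seen to be low. They are 6 of the 25461 genes or unnamed probes kept for testing, and 9 probes carry them: 3 for Itln1, 2 for Mptx1 and 1 for each of the others. All 6 passed the filter on dim probes, and the probe used for each gene was well above background on all 25 arrays and saturated on 0 of them. Every statement about a change with time since DSS is therefore a description of what chose the genes and carries no test. The comparisons between genotypes were tested. They share arrays with the choice of genes, and the genotype differences in change are built from the same day differences. Their p-values and counts are therefore not independent of that choice.

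DSS is a polymer that injures the colon lining when drunk, and the mice took it at 2% (w/v) in their water for 7 days and then had plain water for 5 days. Female mice of 8 weeks, all of the C57BL/6j background and kept free of specific pathogens, were either Card9-/- or wild type (WT). Card9 is an adaptor protein of immune cells that relays signals from receptors for fungi. Colon RNA was taken before DSS (day 0), at day 7, which is the end of DSS, and at day 12, which is the end of recovery, and each array held the RNA of 1 sample. The groups hold 3 arrays labelled Card9-/- and 3 WT arrays at day 0, 4 and 5 at day 7, and 5 and 5 at day 12. The design counts 5 Card9-/- mice at day 7, of which 1 is not analysed here. The labels do not name the stretch of colon taken, nor what was deleted in Card9.

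Angiogenins are small ribonucleases of the RNase A family, and mouse Ang4, made by Paneth and goblet cells, kills bacteria. Itln1 encodes intelectin 1, a secreted lectin of goblet and Paneth cells that binds sugars found on microbes. Mptx1 encodes a pentraxin of the gut mucosa, and Retnlb encodes resistin-like molecule beta, a goblet cell protein that acts on bacteria and is induced by cytokines of type 2 immunity.

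The sequences are shown so that the angiogenin copies can be compared at their probes and before their starts. The probes of Ang2 and Ang4 are 60 bases long, and their longest common stretch, in capitals, is 6 bases. Among the probes of Ang, Ang2 and Ang4 no pair had a common stretch over 8 bases. The probes begin at different places in their transcripts (base 224 for Ang2, 136 for Ang4 and 751 for Ang), so this does not show that they tell the copies apart, and matches to other transcripts were not tested.
Ang2 probe (mm9, chr14:51815315-51815374, minus strand): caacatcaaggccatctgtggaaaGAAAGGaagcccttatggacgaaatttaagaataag
Ang4 probe (mm9, chr14:52384066-52384125, minus strand): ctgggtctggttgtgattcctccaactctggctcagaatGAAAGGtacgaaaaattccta

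For 4 of the 6 genes RefSeq gives a window around the start site in build GRCm38.p6, and the 120 bases before the start are printed for Ang4, for its relative Ang5, and for Itln1, Mptx1 and Ang, with matches on either strand in capitals. The runs searched were TATAAA, the core of the TATA box, its variant TATATA and, added once the stretches had been read, the variant CATAAA.
Ang4 (chr14:51773591-51773710, minus strand): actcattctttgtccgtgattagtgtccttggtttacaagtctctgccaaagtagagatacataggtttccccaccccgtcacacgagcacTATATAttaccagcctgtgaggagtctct
Ang5 (chr14:43956949-43957068, plus strand): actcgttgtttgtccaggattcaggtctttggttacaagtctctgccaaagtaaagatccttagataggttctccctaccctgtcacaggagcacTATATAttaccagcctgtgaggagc
Itln1 (chr1:171535295-171535414, minus strand): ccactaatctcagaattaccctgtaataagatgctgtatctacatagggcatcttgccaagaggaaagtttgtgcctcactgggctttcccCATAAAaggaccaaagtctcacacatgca
Mptx1 (chr1:174330398-174330517, plus strand): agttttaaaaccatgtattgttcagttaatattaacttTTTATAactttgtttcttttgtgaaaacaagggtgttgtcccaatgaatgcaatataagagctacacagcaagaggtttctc
Ang (chr14:51090957-51091076, plus strand): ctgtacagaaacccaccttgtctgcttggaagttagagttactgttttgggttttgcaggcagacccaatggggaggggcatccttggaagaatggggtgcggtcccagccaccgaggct

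The stretches differ in which of the 3 runs they hold. Ang4 has TATATA beginning at position -29 from the start, and 0.868% of 32851 RefSeq windows hold that run on the gene's strand with its first base between positions -35 and -20. Itln1 has CATAAA at the same position, which 0.661% of the windows hold there. The window of Ang has none of the 3 runs, and the same window is given for Rnase4, a neighbouring ribonuclease gene, which has a second window of its own. Mptx1 has TATAAA only on the other strand in the stretch shown, farther from the start, and 13.6% of the windows hold TATAAA anywhere on either strand. On its own strand Mptx1 has TATAAG beginning at position -29, as the runs of Ang4 and Itln1 do. TATAAG was not among the runs searched, so its share of the windows was not counted. Over the 300 bases the Ang4 window aligned with that of Ang5, which is the same as that of Ang6, at 256 of 304 columns, or 84.2%. A match of this kind is a description of letters and not of a site in use.

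Some facts about the arrays touch the results. The single Card9 probe was brighter where the label says Card9-/-, at -1.52, -1.36 and -0.72 on day 0, against -6.60, -5.84 and -5.74 in WT, where no array had it well above background (at least 11.4-fold, adjusted p = 0.00999 by limma). At day 7 the probe was at -0.70 to -0.48 with the Card9-/- label and -6.19 to -4.32 in WT (adjusted p = 0.000452 by limma). At day 12 it was at -1.35 to -0.72 and -6.84 to -2.93 (adjusted p = 0.000198 by limma). No source used here says whether this probe lies outside the deleted stretch, and the genotype is written as labelled. Whether the 2 labels were exchanged was not tested, and an exchange would turn the sign of every genotype difference. The mean of 12 pancreatic acinar genes, set against its WT day 0 mean, was 13.09 and 13.42 for replicates 2 and 3 of the day 7 arrays labelled Card9-/-, 12.30 for replicate 1 of the day 12 arrays so labelled and 6.79 for replicate 5 of WT day 12, against -0.95 to 1.71 on the other arrays. A list of Hox genes that mark the proximal colon, of which 6 of 8 were tested, had means of 4.12, 3.54 and -0.29 on the same scale in the day 0 arrays labelled Card9-/-, 4.54 in replicate 1 of WT day 7 and 2.25 in replicate 4 of WT day 12, against -0.73 to 0.72 elsewhere. A list of distal colon genes, of which 6 of 7 were tested, had means of -2.01, -1.43 and 0.67 in the day 0 arrays labelled Card9-/-. It was 1.23 in replicate 1 of WT day 7 and -1.01 in replicate 4 of WT day 12, against -0.31 to 1.39 elsewhere. Muc2, the main mucin of goblet cells, was well above background on every array, at log2 levels of 7.38 to 8.78.

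Levels are log2 of the processed intensity after subtracting the 75th percentile of the same array, so a level of 0 is the brightness of that percentile. Levels of different probes cannot be set against each other, and each gene is compared only with itself.

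**Figure D1:**
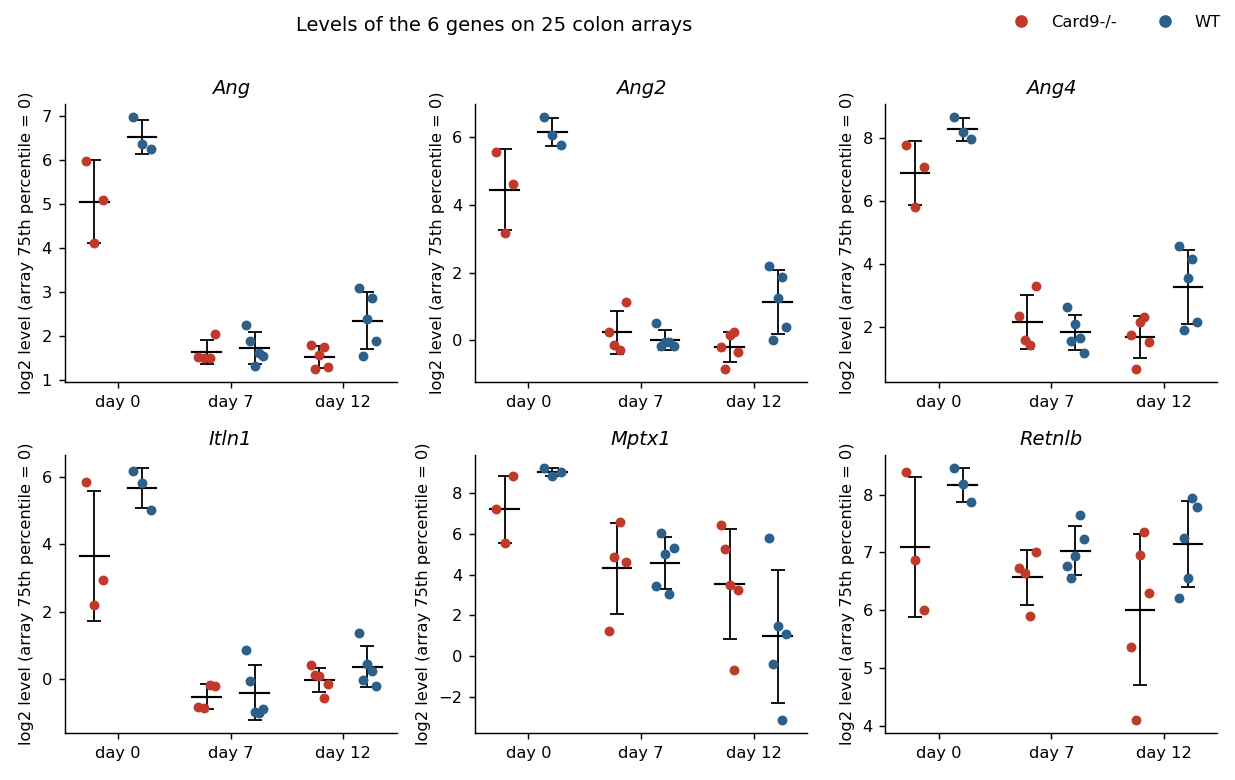
Log2 level of each of the 6 genes (vertical axis, 75th percentile of the array at 0) on every array by day, with arrays labelled Card9-/- in red left of WT arrays in blue. Points are arrays, lines are group means and bars are the SD. Ang, Ang2, Ang4 and Itln1 sat far lower at days 7 and 12 than at day 0, Mptx1 was scattered, and Retnlb stayed between 4.10 and 8.45 throughout.

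Ang4 had the largest difference of the angiogenins. Its log2 level in the arrays labelled Card9-/- was 2.35, 1.60, 1.43 and 3.31 at day 7, against 7.80, 5.82 and 7.10 at day 0. In WT arrays it was 2.65, 1.56, 2.10, 1.67 and 1.18 at day 7, against 8.68, 8.20 and 7.99 at day 0. No array of day 7 came near any array of day 0 in either genotype. The difference between day 7 and day 0 was -4.73 ± 0.61 (SE) in the arrays labelled Card9-/- and -6.46 ± 0.59 in WT, which are 26.6-fold and 87.9-fold lower levels.

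Ang2, a mouse angiogenin copy, kept the same pattern. At day 7 it measured 0.24, -0.15, -0.27 and 1.15 in the arrays labelled Card9-/-, against 5.57, 3.18 and 4.62 at day 0. The WT arrays had 0.53, -0.16, -0.06, -0.03 and -0.17 at day 7, against 6.60, 6.08 and 5.79 at day 0. Day 7 minus day 0 was -4.22 ± 0.51 in the arrays labelled Card9-/- and -6.14 ± 0.49 in WT.

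Ang, the mouse form of the angiogenin known for its action on blood vessels and RNA, had the smallest difference of the angiogenins. Its levels at day 7 were 1.52, 1.50, 1.50 and 2.05 in the arrays labelled Card9-/-, against 5.97, 4.10 and 5.09 at day 0. In WT they were 2.25, 1.89, 1.32, 1.61 and 1.54 at day 7, against 6.98, 6.36 and 6.26 at day 0. The day 7 values lay close together and the day 0 values labelled Card9-/- were spread from 4.10 to 5.97. The difference was -3.41 ± 0.37 with the Card9-/- label and -4.81 ± 0.35 in WT.

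Itln1 was lower by about as much as the angiogenins. Its day 7 levels were -0.83, -0.87, -0.19 and -0.21 in the arrays labelled Card9-/-, against 5.84, 2.19 and 2.93 at day 0. In WT arrays they were 0.87, -0.07, -0.98, -1.01 and -0.88, against 6.17, 5.83 and 5.03. Among the arrays labelled Card9-/- at day 0, replicate 1 was at the WT level and the other two were over 2 log2 units below every WT array. The difference was -4.18 ± 0.62 with the Card9-/- label and -6.09 ± 0.59 in WT, and the other probes of Itln1 gave the same direction. One of them was well above background on only 1 of 4 arrays labelled Card9-/- and on 1 of 5 WT arrays at day 7.

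Mptx1 was high at day 0 and then lower and widely scattered. At day 7 the arrays labelled Card9-/- had 1.21, 4.85, 6.58 and 4.62, against 7.20, 5.58 and 8.85 at day 0, and those 2 ranges overlap. The WT arrays had 3.44, 6.05, 5.04, 3.07 and 5.29, against 9.24, 8.86 and 9.02, with no overlap. Day 7 minus day 0 was -2.90 ± 1.68 with the Card9-/- label and -4.46 ± 1.60 in WT. The day 7 arrays with acinar signal were replicates 2 and 3 of that label, at 4.85 and 6.58, and without the arrays with such signal the difference was -4.30. With the Hox mean as a covariate it was -4.51.

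Retnlb goes against the description of these genes as lost. At day 7 it measured 6.73, 6.64, 5.90 and 7.01 in the arrays labelled Card9-/-, against 8.39, 6.87 and 6.00 at day 0. In WT arrays it measured 6.77, 6.55, 6.93, 7.64 and 7.24, against 8.45, 8.18 and 7.87. The day 7 and day 0 ranges overlap with the Card9-/- label and lie just apart in WT. The difference was -0.52 ± 0.62 with the Card9-/- label and -1.14 ± 0.60 in WT, and the lowest level on any array was 4.10.

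Over the 6 genes the median difference between day 7 and day 0 was -3.80 with the Card9-/- label and -5.45 in WT, against -0.08 and 0.03 over all features tested. In the arrays labelled Card9-/- 4 of the 6 genes had every day 7 value below every day 0 value, as had 18.1% of all features. In WT all 6 did, as had 7.22% of all features. These counts restate what chose the genes. In a bulk sample, fewer cells that make a transcript and less of it in each cell cannot be told apart.

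**Figure D2:**
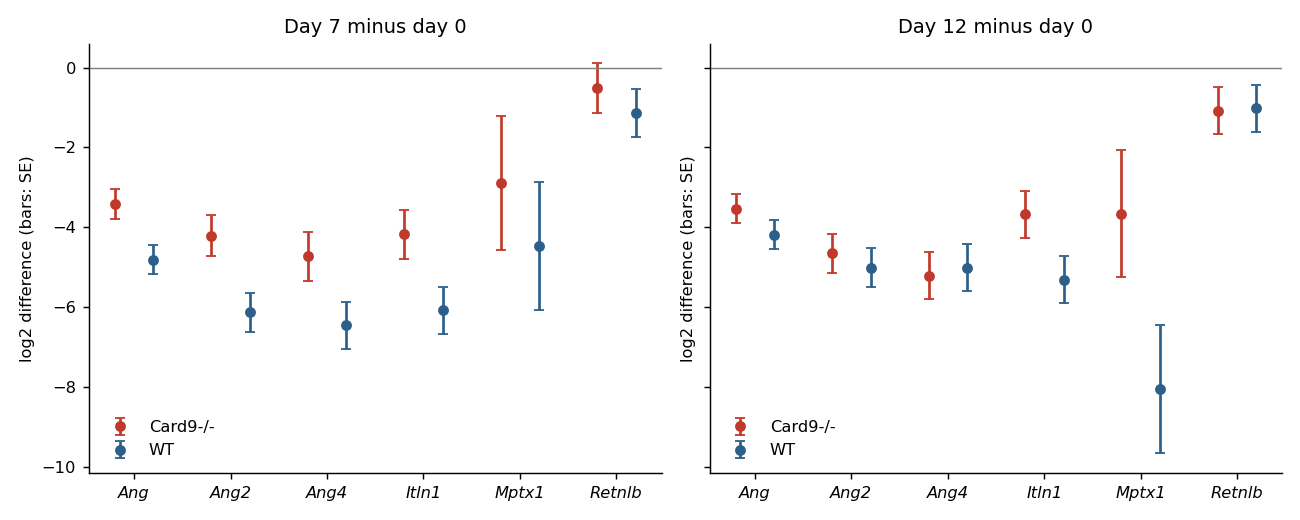
Log2 difference of day 7 (left) and day 12 (right) from day 0 for each gene, with the SE of the fit as bars and arrays labelled Card9-/- in red left of WT in blue. The 4 genes Ang, Ang2, Ang4 and Itln1 lay between -6.46 and -3.41 at day 7, Mptx1 had the widest bars, and Retnlb lay nearest to 0.

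By day 12, after 5 days of plain water, Ang, Ang2, Ang4 and Itln1 were still far below day 0. Ang4 at day 12 measured 1.76, 0.66, 2.17, 2.31 and 1.53 in the arrays labelled Card9-/-, against 4.57, 1.90, 3.58, 4.16 and 2.17 in WT. Ang2 measured -0.18, -0.85, 0.16, 0.24 and -0.34 with the Card9-/- label, against 2.21, 0.01, 1.25, 1.88 and 0.39 in WT. Ang measured 1.79, 1.24, 1.56, 1.74 and 1.29 with the Card9-/- label, against 3.09, 1.53, 2.38, 2.85 and 1.87 in WT. Replicates 1, 3 and 4 of WT were the high ones for all 3 angiogenins, while replicates 2 and 5 lay within or just above the range of the arrays labelled Card9-/-. Replicate 4 was the WT array with the raised Hox mean and replicate 5 the one with acinar signal.

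Set against day 7, the day 12 levels in WT were higher by 1.45 ± 0.51 for Ang4, 1.12 ± 0.42 for Ang2 and 0.63 ± 0.31 for Ang, and in the arrays labelled Card9-/- the differences were -0.49 ± 0.54, -0.44 ± 0.45 and -0.12 ± 0.33. Set against day 0, Ang4 at day 12 was lower by 37.2-fold with the Card9-/- label and by 32.3-fold in WT.

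Itln1 at day 12 measured 0.40, 0.12, 0.08, -0.56 and -0.16 in the arrays labelled Card9-/-, against 1.35, -0.03, 0.43, 0.24 and -0.22 in WT. Day 12 minus day 0 was -3.68 ± 0.59 with the Card9-/- label and -5.32 ± 0.59 in WT. Both genotypes stayed near the day 7 level, and the day 12 ranges overlap.

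Mptx1 ran opposite to the angiogenins in WT. Its day 12 levels were 6.46, 5.26, 3.50, -0.68 and 3.24 in the arrays labelled Card9-/-, against 5.82, -0.39, 1.50, -3.16 and 1.10 in WT. Day 12 minus day 7 was -0.76 ± 1.47 with the Card9-/- label and -3.60 ± 1.39 in WT, so that the lowest WT mean of this gene, 0.97 ± 3.27 (SD, n = 5), came at the end of recovery and not at the end of DSS. Replicate 1 was the highest WT array and replicate 4 the lowest, and the ranges of the genotypes overlap. The second Mptx1 probe gave day 12 levels of 5.97, 5.17, 3.16, -0.99 and 3.06 with the Card9-/- label, against 5.54, -0.61, 1.13, -4.21 and 0.77 in WT, so the scatter was in both probes.

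Retnlb at day 12 measured 5.36, 4.10, 6.95, 7.35 and 6.30 in the arrays labelled Card9-/-, against 6.22, 7.24, 6.55, 7.94 and 7.78 in WT. Day 12 minus day 0 was -1.08 ± 0.60 with the Card9-/- label and -1.02 ± 0.60 in WT. The day 12 ranges of the genotypes overlap.

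In 4 of the 6 genes every day 12 array labelled Card9-/- lay below every day 0 array of the same label, against 9.68% of all features. In WT 5 of the 6 did, against 6.91% of all features, and the exception was Retnlb.

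Ranked by group mean, Ang, Ang2 and Ang4 had one order at the top: WT day 0, then the label Card9-/- at day 0, then WT day 12. The ranges of these 3 groups did not overlap, while WT day 12 and both day 7 groups each overlapped the next lower group, down to the day 12 group labelled Card9-/-, the lowest. For Itln1 and Retnlb the 2 day 0 groups overlapped as well. Mptx1 had every WT day 0 array above all other arrays, but barely. The lowest of them was at 8.863, and the highest day 0 array labelled Card9-/- at 8.853. From the label Card9-/- at day 0 downward each group overlapped the next.

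Before any DSS all 6 genes had lower group means with the Card9-/- label than in WT. The differences were -1.48 ± 0.40 for Ang, -1.70 ± 0.55 for Ang2, -1.38 ± 0.65 for Ang4, -2.02 ± 0.66 for Itln1, -1.83 ± 1.79 for Mptx1 and -1.08 ± 0.67 for Retnlb. In limma's fit over all features 0 of the 6 passed the test at an adjusted p under 0.05, as did 0.00393% of all features, and the lowest adjusted p among the 6 was 0.634. At an unadjusted p under 0.05 there were 4, all lower, namely Ang, Ang2, Ang4 and Itln1, against 2.14% of all features that were lower at that p. For Ang, Ang2, Ang4 and Mptx1 each of the 3 arrays labelled Card9-/- lay below each of the 3 WT arrays, as did 5.76% of all features. For Mptx1 the nearest arrays almost met, at 8.853 with the Card9-/- label and 8.863 in WT.

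The Hox list moved with this comparison, since 2 of the 3 arrays labelled Card9-/- stood high in it and no WT array of day 0 did. With the Hox mean as a covariate the differences were -1.69 for Ang, -1.94 for Ang2, -1.76 for Ang4, -2.59 for Itln1 and 0.15 for Mptx1. Without replicate 1 of the arrays labelled Card9-/- the Itln1 difference was -3.11 and its adjusted p by limma was 0.0341, so 1 of the 6 genes then passed. Without replicate 2, the lowest of the label for all of Ang, Ang2, Ang4, Itln1 and Mptx1, the differences came closest to 0, at -0.999 for Ang, -1.06 for Ang2, -0.84 for Ang4, -1.29 for Itln1 and -1.01 for Mptx1. For Retnlb leaving out single arrays gave -1.73 to -0.54. A single array slide held both genotypes at day 0, and within it the differences were -1.01 for Ang, -1.03 for Ang2, -0.88 for Ang4, -0.33 for Itln1, -2.04 for Mptx1 and -0.06 for Retnlb. With slide as a block over all arrays the difference of Mptx1 was 0.01.

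At day 7 the differences of the label Card9-/- from WT were between -0.46 ± 0.55 for Retnlb and 0.34 ± 0.54 for Ang4. None of the 6 passed limma's test, against 0.55% of all features, and 0 reached an unadjusted p under 0.05, against 16.5% of all features. A p that misses the threshold does not show equal levels, and the SE for Mptx1 was 1.47. Without the arrays with acinar signal, which include 2 of the 4 labelled Card9-/-, the differences were -1.66 for Mptx1, 0.996 for Ang4 and 0.671 for Ang2. Within slides Mptx1 differed by -2.23 to 1.55. For 0 of the 6 did the genotypes separate with the Card9-/- label lower, against 1.62% of all features.

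At day 12 the 3 angiogenins were lower with the Card9-/- label than in WT, by amounts beyond an unadjusted p of 0.05 but not beyond the adjusted one. The differences were -0.82 ± 0.31 for Ang, -1.34 ± 0.42 for Ang2 and -1.59 ± 0.51 for Ang4, and the lowest adjusted p of the 6 genes by limma was 0.258, for Ang2. Retnlb differed by -1.13 ± 0.52 (unadjusted p = 0.0395 by limma), Itln1 by -0.38 ± 0.51 and Mptx1, in the other direction, by 2.58 ± 1.39. Of the 6, 0 passed the test, against 0.0707% of all features, while 4, all lower, reached an unadjusted p under 0.05, against 6.0% of all features lower at that p. For 0 of the 6 did every array labelled Card9-/- lie below every WT array at day 12, against 2.99% of all features.

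Arrays of both genotypes at day 12 lay on each of the 4 slides. Within slides the Ang4 difference was between -3.07 and 0.28, lower with the Card9-/- label on 3 of 4 slides, and -1.65 with slide as a block. For Ang2 it was between -2.47 and 0.15, also lower on 3 of 4 slides, and -1.43 with slide as a block. Without the arrays with acinar signal the day 12 differences were -1.89 for Ang4, -1.53 for Ang2 and -1.01 for Ang.

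The genotypes were also compared in how far the genes moved. From day 0 to day 7 the estimates of this difference, Card9-/- label minus WT on the log2 scale, were 1.40 ± 0.51 for Ang, 1.92 ± 0.71 for Ang2, 1.73 ± 0.85 for Ang4, 1.91 ± 0.85 for Itln1, 1.57 ± 2.32 for Mptx1 and 0.62 ± 0.86 for Retnlb. That of Mptx1 was -0.24 with slide as a block and -0.84 with the Hox mean as a covariate. From day 7 to day 12 the difference was -0.75 ± 0.45 for Ang, -1.56 ± 0.62 for Ang2 and -1.93 ± 0.74 for Ang4. It was -0.268 ± 0.742 for Itln1, -0.675 ± 0.752 for Retnlb and, in the other direction, 2.841 ± 2.024 for Mptx1. From day 0 to day 12 the estimates ran from -0.206 ± 0.828 for Ang4 to 4.408 ± 2.267 for Mptx1. In limma's test of these differences 0 of 6 passed in each of the 3 intervals, against 0.00393%, 0.00786% and 0.00393% of all features. At an unadjusted p under 0.05 there were 3, 2 and 0 genes, against 11.6%, 7.72% and 6.84% of all features.

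**Figure D3:**
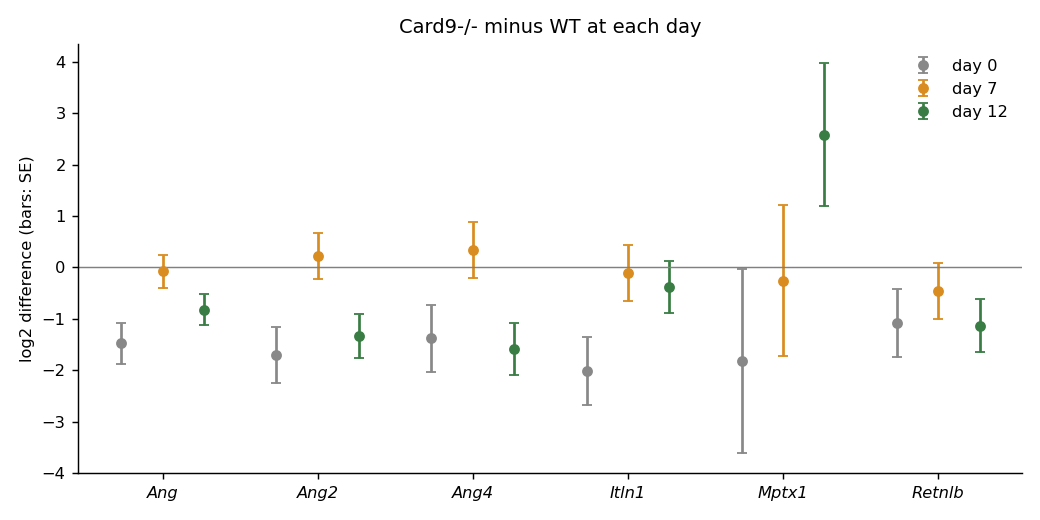
Log2 difference of arrays labelled Card9-/- minus WT arrays for each gene at day 0 (grey), day 7 (orange) and day 12 (green), with the SE of the fit as bars. All 6 points of day 0 lay below 0, the day 7 points lay between -0.46 and 0.34, and at day 12 Ang4 lay at -1.59 and Mptx1 at 2.58.

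The genes fall into 3 kinds by how they varied across arrays, given here as descriptions over 25 arrays that share group, slide and scaling. Ang, Ang2 and Ang4 went together with Pearson correlations of 0.983 to 0.995, and Itln1 with them at 0.94 to 0.974. Mptx1 correlated with those 4 at 0.534 to 0.641, and Retnlb at 0.455 to 0.551. Between Mptx1 and Retnlb the correlation was -0.0598.

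With group means taken out, the angiogenins still varied together from array to array, at 0.857 to 0.962. Itln1 followed Ang at 0.794, Ang2 at 0.658 and Ang4 at 0.55. Mptx1 and Retnlb then ran against each other at -0.642: in replicate 4 of the day 12 arrays labelled Card9-/-, Mptx1 was the lowest of its group and Retnlb the highest, and the same held for replicate 4 of WT day 12, the array with the raised Hox mean.

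**Figure D4:**
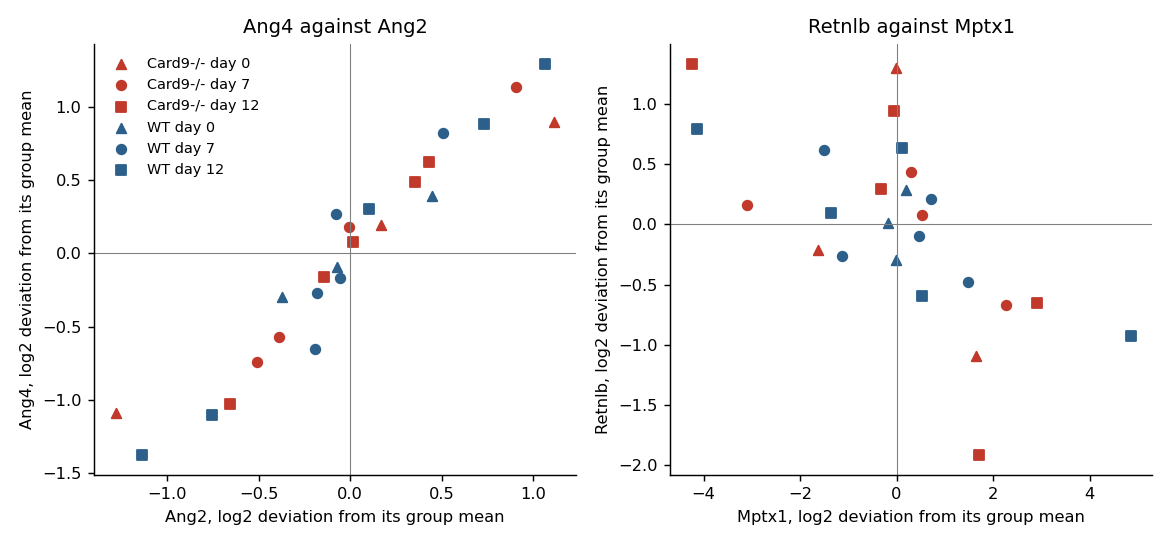
Deviation of each array from its group mean in log2 units, Ang4 against Ang2 (left) and Retnlb against Mptx1 (right). Red marks arrays labelled Card9-/-, blue WT arrays, and the symbols the days. Ang4 and Ang2 lie along a rising line (correlation 0.962 over 25 arrays), while Retnlb and Mptx1 run from upper left to lower right (-0.642).

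Among 14116 named genes well above background on at least 13 arrays, the one most like Ang4 over all arrays was Ang3 (correlation 0.998), another angiogenin copy, followed by Bmx (0.912), a tyrosine kinase, and Fam221a (0.893). With group means taken out Ang3 still led for Ang4, at 0.989. Whether the probe named Ang3 also reads other angiogenin copies, such as Ang5 and Ang6, was not tested. Leaving out the 6 genes themselves, the most alike to Itln1 were Ppp1r9a (0.935), Ang3 (0.929), Igf2r (0.929) and Anxa13 (0.923), an annexin of the intestinal lining. For Mptx1 they were Bex4 (0.863), Tmem53 (0.859) and Lyplal1 (0.841). Retnlb was most like the hair keratin-associated genes Krtap21-1 (0.94) and Krtap20-2 (0.916), and with group means taken out also like Reg3g (0.827), an antibacterial lectin of the gut.

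Of the ribonuclease relatives, 13 of 23 listed genes were tested, and at day 7 in WT the only one to pass the test was the copy named Ang3, which fell by 6.34 ± 0.60 (adjusted p = 2.98e-06 by limma). Ang3 followed Ang4 at a correlation of 0.998 on the same arrays. Its tests over time are therefore not independent of how the 6 genes were chosen and are no separate support. In the arrays labelled Card9-/- 7 of the 13 rose and 2 fell, Ang3 (-4.57 ± 0.63) and Rnase4 (-1.35 ± 0.24, adjusted p = 0.00059 by limma). The risers included Ear1 (2.79 ± 0.55) and Ear12 (2.48 ± 0.56), ribonucleases of eosinophils. The mean of the list, set against its WT day 0 mean, was 1.37 and 1.02 on the 2 day 7 arrays of that label with acinar signal and 0.02 and 0.25 on the other two, and the part of that signal in the count was not tested. Over all features, 12.7% fell and 6.92% rose in the arrays labelled Card9-/-, and 2.33% fell and 2.02% rose in WT. The same shares stand beside the day 7 counts of the lists that follow. Rnase1, the pancreatic ribonuclease, was at 6.64 and 6.54 on the 2 day 7 arrays with acinar signal and not well above background on the other two of that group. Ang4 on those 2 arrays was 1.60 and 1.43, the lowest of its group.

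Rnase4 has 1 of its start sites in common with Ang and another of its own. At day 7 Rnase4 measured 1.62, 1.41, 1.61 and 1.79 in the arrays labelled Card9-/-, against 3.42, 2.93 and 2.53 at day 0. In WT it measured 3.02, 2.29, 1.57, 2.10 and 1.80, against 2.97, 2.83 and 2.94. The WT difference was -0.76 ± 0.23 (adjusted p = 0.0701 by limma), beside -4.81 ± 0.35 for Ang.

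Relatives of the other 3 genes were few. Of the lectins, pentraxins and resistin family 5 of 10 listed genes were tested. The probe named for Itlnb, a close copy of Itln1 that mice of the C57BL/6 background are thought to lack, fell by at least 10.4-fold in WT at day 7 (adjusted p = 1.73e-05 by limma), with measured means of -6.38 at day 7, when no array had it well above background, and -1.16 at day 0. Its signal may be transcript of Itln1, which was not tested. If so, its p-value is not independent of how the 6 genes were chosen. Retnlg, a resistin-like gene of myeloid cells, rose by 7.82 ± 0.64 with the Card9-/- label and by 4.88 ± 0.61 in WT, opposite to its relative Retnlb. Neutrophil markers moved with it: set against its WT day 0 mean, the mean of 8 such genes was 2.33 to 3.02 in the day 7 arrays labelled Card9-/- and 0.76 to 2.59 in those of WT. Their part in the Retnlg values was not tested.

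Goblet cells are the main known source of Retnlb and Itln1. All 21 listed goblet cell genes were tested. At day 7, 10 fell and 1 rose in the arrays labelled Card9-/-, with a median difference of -0.55, and in WT 5 fell and 1 rose, with a median of -0.42. Those that fell in both included Tpsg1 (-1.26 ± 0.16 with the Card9-/- label and -1.12 ± 0.15 in WT) and Ern2 (-1.02 ± 0.15 and -0.79 ± 0.14), a stress sensor of mucus-making cells. Fut2, which builds sugar chains on mucins, rose in WT by 1.33 ± 0.20. Muc2 was 0.88 ± 0.20 lower with the Card9-/- label (adjusted p = 0.00394 by limma) and 0.42 ± 0.19 lower in WT (adjusted p = 0.262 by limma). By day 12 the median of the list against day 0 was -0.04 with the Card9-/- label and 0.00 in WT, beside differences of -5.22 and -5.01 for Ang4. Muc2 was still lower at day 12 with the Card9-/- label (-0.65 ± 0.19, adjusted p = 0.0444 by limma), and in WT its difference was -0.28 ± 0.19.

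**Figure D5:**
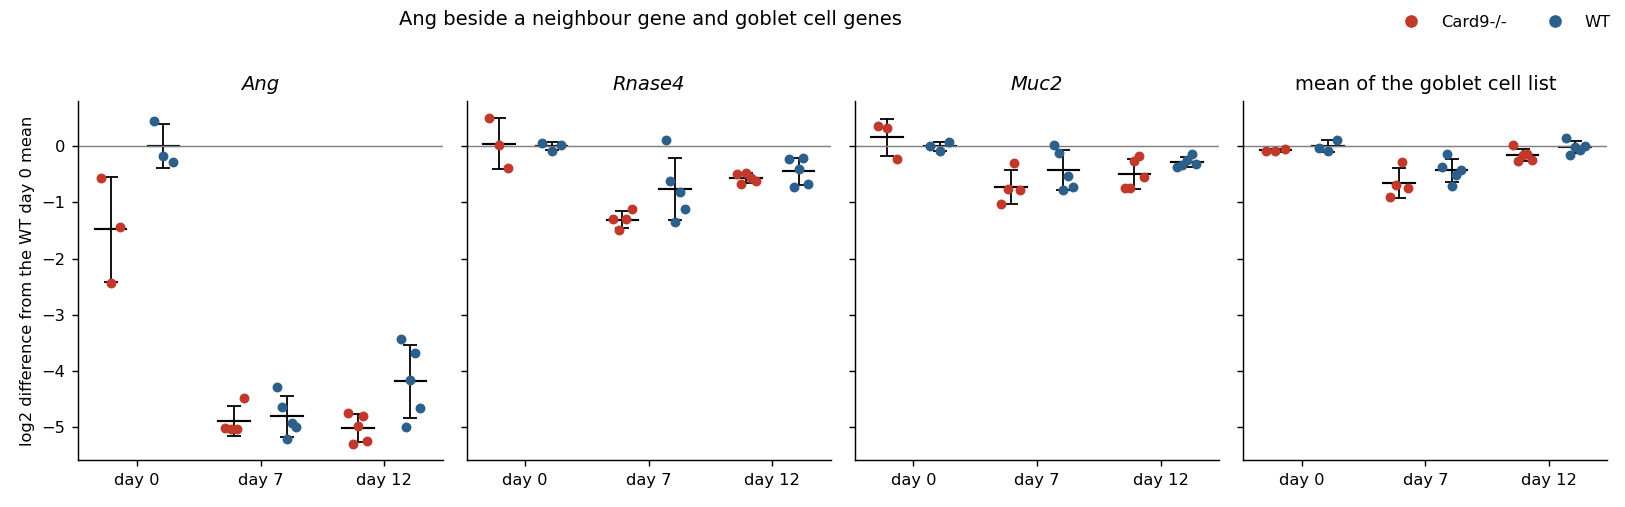
Log2 difference of each array from the WT day 0 mean for Ang, Rnase4, Muc2 and the mean of 21 goblet cell genes, by day, with arrays labelled Card9-/- in red left of WT in blue, lines at group means and bars for the SD. Before that mean was subtracted, the day 7 arrays had Ang at levels of 1.32 to 2.25, against a WT day 0 mean of 6.53. The goblet cell mean stayed within 0.91 of its own WT day 0 mean.

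Deep crypt secretory cells, which stand in for Paneth cells in the colon, were followed with 7 genes, all tested. At day 7, 3 fell and 1 rose with the Card9-/- label and 3 fell in WT, among them Kit (-1.88 ± 0.24 and -1.08 ± 0.23). Reg4, a marker of these cells, fell by 2.57 ± 0.64 in WT at day 7. With the Card9-/- label Reg4 did not pass at day 7. At day 12 against day 7, 4 of the 7 rose with that label, as did 5.73% of all features. Reg4 rose by 2.76 ± 0.59, in the same arrays in which Ang4 changed by -0.49 ± 0.54. Reg4 then stood 2.28 ± 0.64 above day 0 (adjusted p = 0.0346 by limma), where it had been 2.53 below WT (adjusted p = 0.641 by limma). The proximal colon Hox means with that label were 4.12, 3.54 and -0.29 at day 0 and -0.7 to 0.255 at day 12. Whether position along the colon has a part in the Reg4 difference from day 0 was not tested. In WT the rise of Reg4 from day 7 to day 12, 1.90 ± 0.55, did not pass (adjusted p = 0.127 by limma). Of 13 listed Paneth cell genes 6 were tested, and their mean, set against its WT day 0 mean, was -0.21 to 2.94 in the day 0 arrays labelled Card9-/-, 0.80 to 1.62 in the day 12 arrays so labelled and 0.93 to 2.26 in those of WT. At day 7, 2 of the 6 rose with the Card9-/- label, Pla2g2a (4.01 ± 0.74) and Lyz1 (2.58 ± 0.51), and in WT the lowest adjusted p of the 6 was 0.0925 by limma, for Mmp7 (2.57 ± 0.85).

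Of 24 other defence genes of the mucosa, all tested, 16 rose and 1 fell at day 7 with the Card9-/- label, and in WT 9 rose and the other 15 did not pass. Over all features, 6.92% rose and 12.7% fell with that label, and 2.02% rose and 2.33% fell in WT. Set against its WT day 0 mean, the list mean was 4.09 and 3.835 on replicates 2 and 3 of that label, which had acinar signal. It was 2.72 and 3.19 on replicates 1 and 4, and 1.659 to 2.657 in WT. The part of the acinar signal in the count was not tested. S100a9, a subunit of the metal-binding calprotectin, rose by 12.88 ± 0.84 with the Card9-/- label and 7.87 ± 0.80 in WT. Slpi, a protease inhibitor with antibacterial action, rose by 5.31 ± 0.53 and 3.44 ± 0.50. Neutrophils also make S100a9, and the mean of their 8 markers was 2.82 and 1.70 above its WT day 0 mean in those groups, and its part in these values was not tested.

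Genes of type 2 immunity, whose cytokines can induce Retnlb and Itln1, were listed as 14, of which 11 were tested. At day 7, 5 rose and 2 fell with the Card9-/- label, and 4 rose and 1 fell in WT. Il1rl1, the receptor for the Il33 protein, rose by 7.25 ± 0.87 with the Card9-/- label and 3.40 ± 0.83 in WT, and Il33 itself by 3.58 ± 0.55 and 2.94 ± 0.53. Il17rb, a cytokine receptor, fell by 1.82 ± 0.40 in WT at day 7. Il13 was well above background on 1 of the 25 arrays, so its level could not be followed.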

How the data were processed

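RNA of colon was measured on 25 single-colour Agilent arrays (62976 spots, 4 slides), 1 RNA sample an array, labelled with Cy3 from 100 ng of RNA, as the labels' protocols state. The deposited array files hold spot intensity values from Agilent Feature Extraction 10.7.3.1, per the submitters' processing notes; the processed intensity is background-subtracted and detrended, per the file headers, and not scaled between arrays. The deposited series table holds log2 values of 33418 probes, whose normalization no source used here states; it served as an alternative.

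For each array the 75th percentile of log2 processed intensity over non-control spots was subtracted. Control and outlier spots were left out. Probes well above background on at least 3 of 25 arrays were kept, and a gene with several probes was read from the one with the highest mean. Groups were fitted with limma 3.58.1 (R 4.3.3), in 1 model of 6 groups, with Benjamini-Hochberg adjustment over all 25461 features and a threshold of 0.05; files were read through data.table (release 1.17.8), figures drawn with matplotlib 3.10.9 and promoters aligned with Biopython 1.88 in Python 3.11.15. Probes were named through RefSeq accessions or symbols of GRCm38.p6 (27656 and 3660 of 55681), and 24365 kept the file's name.

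The 6 genes and the gene lists were chosen with earlier results of these data known; list genes named are up to 4 passing genes of smallest p, and genes of like pattern come from the 5 with the highest Pearson correlation over the 25 arrays, with and without the group means. The labels do not say that replicates are separate mice, though the design counts mice, so p-values measure the spread between these samples. Replicate numbers were not treated as pairs, since in 0 of the 9 comparisons did every same-numbered pair correlate over 0.1. Between WT days 7 and 12 same-numbered pairs correlated at 0.054 to 0.681, and other pairs at -0.472 to 0.229. The rule asks for every pair, so it does not exclude pairing there. On simulated arrays of the day 12 comparison (25203 genes), the fit recovered 52% of changes of 1 log2 unit and 82% of changes of 2. The changed genes were drawn at random, with independent noise of 1 SD per gene in all groups. These rates are therefore not those of the 6 genes. The number of arrays limits the precision.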

Additional observations from a re-analysis of the deposited data

Results flagged for a closer look

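Of 24 sets of 4 or 5 arrays examined for a value far from the rest of its group (Dixon's ratio), 2 were beyond the critical value, and chance alone gives about 1 in 20. Ang2 in WT day 7 had 0.525 in replicate 1, with the other 4 arrays between -0.17 and -0.03 (ratio 0.805, limit 0.71). The same array had the highest Ang, Ang4 and Itln1 of its group, at 2.25, 2.65 and 0.87. Its mean of the proximal colon Hox list was 4.54 above the WT day 0 mean, against -0.73 to 0.72 in the other 4. Its mean of the distal colon list was also the highest of the group, at 1.23, against -0.31 to 1.10. Whether position along the colon has a part in it was not tested. Ang in the day 7 arrays labelled Card9-/- had 2.05 in replicate 4, with the next at 1.52 (ratio 0.968, limit 0.829). That array also had the highest Ang2 and Ang4 of its group, at 1.15 and 3.31, and its Hox and acinar means, 0.63 and -0.13, did not stand apart.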

How the results depend on the processing

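The settings tried were normexp background correction, quantile scaling, the array median, the deposited series table, no filter or a filter of 13 arrays, each probe, slide as a block, a replicate block, the compared groups alone, the Hox mean as a covariate, and leaving out the 4 arrays with acinar signal or each array in turn. The count of the 6 genes passing in the 6 genotype comparisons stayed at 0, except that without each day 0 array in turn it was 0 to 1. Over these settings the WT median of day 7 minus day 0 was -5.74 to -5.21. With the replicate block, which the main fit did not use, 0 genes passed and the WT median was -5.34. The day 12 differences of Ang2 and Ang4 then had adjusted p of 0.141 and 0.12 by limma.

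Of the single-gene values followed in the genotype comparisons, 13 changed sign, all of them in comparisons that did not pass. At day 0 Mptx1 was 0.014 with slide as a block and 0.147 with the Hox mean. At day 7 Ang was 0.063 without the acinar arrays and -0.215 to 0.055 over single arrays left out, above 0 without WT replicate 1. Without single arrays Ang2 was -0.079 to 0.391 and Ang4 -0.037 to 0.587, below 0 without replicate 4 of the label Card9-/-. Itln1 was 0.013 with the Hox mean and -0.262 to 0.209 without single arrays, 0.209 without WT replicate 1 and 0.003 without replicate 2 of the label Card9-/-. Mptx1 was -1.018 to 0.772, at 0.772 without replicate 1 of the label Card9-/- and 0.106 without WT replicate 2. The genotype difference in the change of Mptx1 from day 0 to day 7 was -0.243 with slide as a block and -0.843 with the Hox mean. Some of the untested changes with time crossed 0 as well. Day 7 minus day 0 of Retnlb with the Card9-/- label was -1.064 to 0.131 without single arrays. Day 12 minus day 7 with that label reached 0.051 for Ang and 0.298 for Mptx1, and in WT it reached -0.08 for Retnlb. The cause was not tested. Values of Itlnb, and of 1 Itln1 probe after day 0, lie at the background and are bounds or near them.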
